A study of Mus musculus with 16 samples.

Results

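The comparison described here set CD8 T cells sorted from control tumours against control whole tumours, and asked which transcripts the sorted fraction enriched and which it lost. Its members were chosen by their labels: 8 of the 16 libraries of the series, 3 labelled as control tumour-infiltrating CD8 cells and 5 labelled as control tumour tissue. The tumours were grown from HM1, a mouse ovarian cancer line, and the series also held mannose-supplemented libraries of both kinds (5 tumours and 3 CD8), used below only as a repeat of the comparison. "Control" in the labels means no mannose supplement, which is a simple sugar. The labels give no strain, age, sex, sorting gate or tumour site. Nor do they say whether these mice received the PD-1 antibody that the series title mentions. They also do not tie a CD8 library to a tumour library or to an animal, and p-values thus rest on the spread between libraries, which may be technical.

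CD8 T cells recognise peptides on MHC class I molecules through a T cell receptor that signals through the CD3 chains. They kill by releasing perforin and granzymes from cytotoxic granules. In tumours, where antigen persists, these cells carry inhibitory receptors such as PD-1 and switch on transcription factors of the exhausted state. A whole tumour is a mixture of carcinoma cells, macrophages and other leukocytes, fibroblasts with their collagen matrix, vessels and surrounding tissue, and a sort for CD8 is meant to keep the T cells alone.

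Values are TPM, transcript abundances per gene length scaled by the authors to a common total per library, and levels of different genes can therefore be compared on this scale. Between 12345 and 13429 symbols reached 1 TPM in a tumour and between 13538 and 14017 in a CD8 library, and read depth is unknown. The tumour and CD8 tables list different symbols: 52916 are shared, 196 are in the tumour tables only and 2374 in the CD8 tables only. A difference between sorted and whole tissue therefore cannot be told apart from a difference between the sets of tables. The column header inside each CD8 table, control and mannose alike, names a mannose sample, which goes against the label of the controls. The header thus does not separate the CD8 groups, and groups follow the labels. Across the genes tested, libraries correlated on the log2 scale at 0.945 to 0.987 within the tumours, with tumour 1 lowest, at 0.974 to 0.984 within the CD8 libraries and at 0.708 to 0.767 between the groups. CD8 libraries 1 and 2 had nearly the same use of T cell receptor beta V segments: Trbv13-1 made up 41.2% and 41.7% of the segment TPM there and 1.15% in CD8 library 3. Whether libraries 1 and 2 came from the same animal was not tested, and counts with the pair averaged into 1 replicate are given below.

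The labels were first checked with defining transcripts. Cd8a, a chain of the CD8 coreceptor, stood at 0.07, 1.48, 1.44, 0.34 and 3.11 TPM in tumours 1 to 5 and at 591, 569.5 and 586 TPM in CD8 libraries 1 to 3. Cd3e, a signalling chain of the T cell receptor complex, stood at 0.58, 2.24, 4.62, 1.63 and 7.16 TPM in the tumours and at 619, 558 and 587 TPM in the CD8 libraries. Every CD8 library was far above every tumour for these genes, and the CD8 libraries lay close together. Krt8, a keratin of simple epithelia and of carcinomas, stood at 1322, 1151, 1737, 1417 and 1803 TPM in the tumours and at 206, 219 and 90.4 TPM in the CD8 libraries. The groups did not overlap for Krt8 either, but the CD8 libraries were not free of it, and CD8 library 3 held the least. Some transcripts of other lymphocytes were near 0 in every library: the B cell genes Ms4a1 and Cd79a did not exceed 0.44 TPM and the NK cell receptor Ncr1 did not exceed 1.09 TPM in any of the 8. Others were present in the sort, among them Cd4 at a mean of 13.7 TPM, Ighm at 18.9 TPM and Igkc at 55.2 TPM. A second NK cell receptor, Klrb1c, was low but higher in the sort, at means of 0.62 TPM in the tumours and 2.41 TPM in the CD8 libraries.

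**Figure D1:**
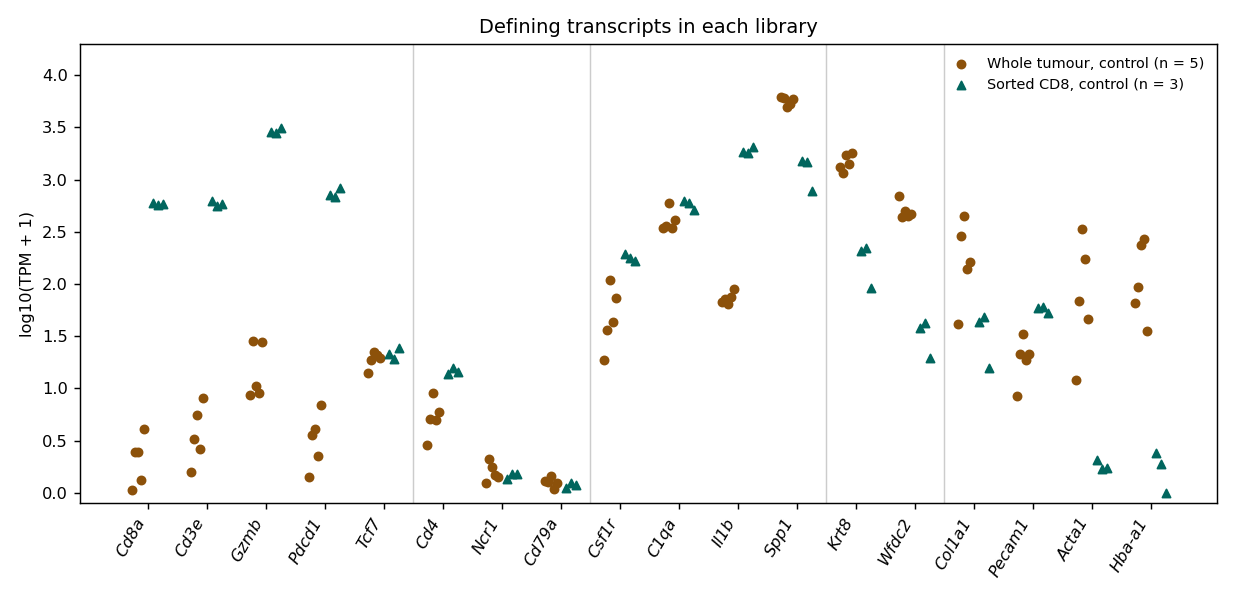
Levels of defining transcripts in each control library, as log10(TPM + 1), with 1 point per library, circles for the 5 whole tumours and triangles for the 3 sorted CD8 libraries, and vertical lines between gene groups. Cd8a, Cd3e, Pdcd1 and Gzmb were far higher in the sort than in tumours, while Tcf7 was at about the same level in both. Of the myeloid genes, Csf1r and Il1b were higher in the sort, C1qa differed little and Spp1 was lower. Krt8 was lower in the sort but above the floor.

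Of 14487 genes tested with limma (log2(TPM + 1), Benjamini-Hochberg adjusted p under 0.05), 9389 or 64.8% differed between sorted CD8 cells and whole tumours. Higher in the sort were 5459 genes, 37.7% of those tested, and lower were 3930, 27.1%. A change of at least 4-fold on this scale was reached by 1339 genes that were higher (9.24%) and 825 that were lower (5.69%). The median difference over all genes tested was 0.18. Under quantile normalization it was -0.07, and 47.8% of the calls instead of 58.1% were then in the higher direction, so the split between directions depends on the scaling. With CD8 libraries 1 and 2 averaged, 4798 genes were higher and 3478 lower. Since most genes differ, the share of a gene list that passed is read below against these background shares, and the median of a list against 0.18. In bulk RNA fewer cells of a type and less RNA per cell cannot be told apart.

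Ranked by size of change, genes at a mean of at least 5 TPM were led in the higher direction by lymphocyte receptors and granule genes. The first was Klrc1, which encodes the inhibitory receptor NKG2A, at 0.29, 1.08, 0.96, 0.49 and 1.91 TPM in the tumours and 684, 686 and 594 TPM in the sort (log2 difference 8.45, SE 0.25, adjusted p 2.63e-08). Its groups lay far apart, and CD8 libraries 1 and 2 stood above library 3. The next were Cd3g (8.22), the T cell membrane gene Ms4a4b (8.19), Cd8a (8.16), the granule protein Nkg7 (8.09), Pdcd1 (7.86), Gzmb (7.64), the G protein regulator Rgs1 (7.52), Cd8b1 (7.45), the chemokine receptor Cxcr6 (7.44), Cd3e (7.35), the T cell adaptor Sh2d2a (7.27), Klrd1 (7.22), which encodes CD94, the partner of NKG2A, and Ctla4 (7.18). The 15th was of another kind: Cxcl1 (7.12), a chemokine that draws neutrophils.

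**Figure D2:**
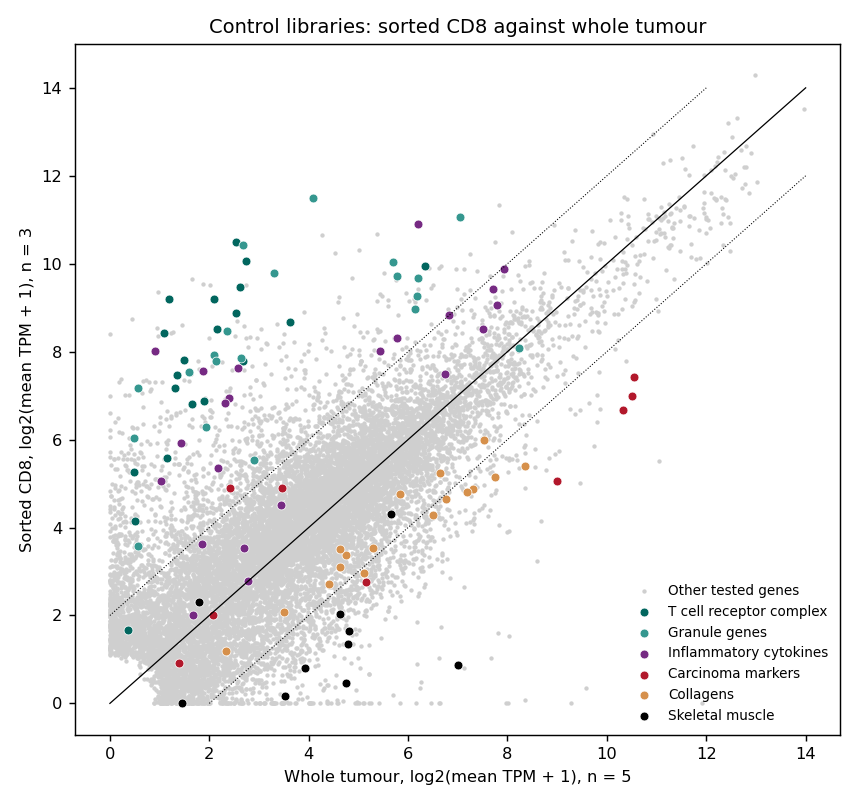
Each gene tested, with its mean over the 5 control tumours on the x axis and over the 3 sorted CD8 control libraries on the y axis, both as log2(mean TPM + 1), with members of 6 lists in colour, a solid line at equal levels and dotted lines at a 4-fold difference. T cell receptor, granule and inflammatory cytokine genes lie mostly above the upper dotted line, keratins and several muscle genes lie below the lower one, and collagens lie below the solid line.

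The complex that recognises antigen was enriched as a block. Of 20 tested genes for T cell receptor constants, CD3 chains, CD8 and other T cell surface proteins, 20 were higher in the sort, 19 of them at least 4-fold, with a median log2 difference of 6.07. Cd3g rose from a mean of 4.81 ± 3.67 TPM (SD, n = 5) to 1447 ± 83.4 TPM (SD, n = 3), and Cd8b1, the second coreceptor chain, from 1.11 ± 0.922 to 341 ± 14.1 TPM. Trbc2, a constant region of the receptor beta chain, went from 5.67 to 1076 TPM. The smallest difference in the list was 1.27, still in the same direction. Thy1, also a gene of fibroblasts, had a tumour level of 79.9 TPM, well above that of the CD3 genes, and reached 994 TPM in the sort.

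All 25 tested genes of the list for signalling below the receptor were higher by at least 4-fold, with a median of 5.27. That list also held lymphocyte genes outside the signalling chain, among them several Gimap genes, Coro1a and Arhgap15. Lck, the kinase that starts the signal on CD3, went from 4.89 to 413 TPM (log2 difference 6.32), and Zap70, the kinase it activates, from 2.09 to 179.9 TPM (5.99). Genes of leukocyte adhesion and cytoskeleton followed, with 19 of 20 higher and a median of 3.35. Among them Itgal, the integrin chain of LFA-1, rose by 4.49, Dock2, which drives leukocyte movement, by 4.43 and Itga4 by 4.45. The one member of the list that did not pass was Itgb7, at 148 TPM in tumours and 129 TPM in the sort.

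Granule genes were high in level as well as in difference. Gzmb, the main granzyme of activated killer cells, stood at 7.71, 27.3, 9.57, 8.07 and 26.8 TPM in the tumours and 2837, 2778 and 3107 TPM in the CD8 libraries (log2 difference 7.64, SE 0.42, adjusted p 4.88e-07). Every CD8 library was far above every tumour, and tumours 2 and 5 were the highest of the tumours. Prf1, the pore-forming perforin, went from 8.92 ± 7.48 to 887 ± 31.3 TPM, and Gzmk from 0.472 to 143 TPM. Of 20 tested granule and death-ligand genes, 19 were higher at a median of 4.90. The one that did not pass was Lamp1, a lysosomal membrane protein found in most cells, at 300.2 TPM in tumours and 271 TPM in the sort.

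Gzmc, Gzmd, Gzme, Gzmf and Gzmg are close relatives in a cluster, and reads may be shared between them. Their tumour means were 53.5, 72.1, 71.2, 50.6 and 69.5 TPM, all above the 15.9 TPM of Gzmb. Summed, these 5 stood at 32.7, 20.6, 22.2, 24.3 and 13.5 times Gzmb in tumours 1 to 5 and at 1.27, 1.26 and 1.41 times Gzmb in the CD8 libraries. The ratio was thus higher in every tumour than in any sorted library. Each of the 5 was still higher in the sort, with log2 differences of 4.06, 3.62, 3.10, 4.55 and 3.02, all smaller than that of Gzmb.

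Promoters of some genes named in the text, from both directions, are printed to show what sequence lies before their starts. Bgn, one of them, was not among the largest falls. Each window holds the 250 bases upstream of the transcription start from the RefSeq table of build GRCm38.p6, matched by symbol. Motif matches on either strand are in capitals. The authors' own tables follow GRCm39, and no position is carried over from one build to the other. Gzmb lies at chr14:56262335-56262584 on the minus strand and Klrc1 at chr6:129678974-129679223 on the minus strand. Bgn, the matrix proteoglycan biglycan, lies at chrX:73483351-73483600 on the plus strand, and Hspb1, a small heat shock protein, at chr5:135887669-135887918 on the plus strand; the last pair were lower in the sort.
Gzmb: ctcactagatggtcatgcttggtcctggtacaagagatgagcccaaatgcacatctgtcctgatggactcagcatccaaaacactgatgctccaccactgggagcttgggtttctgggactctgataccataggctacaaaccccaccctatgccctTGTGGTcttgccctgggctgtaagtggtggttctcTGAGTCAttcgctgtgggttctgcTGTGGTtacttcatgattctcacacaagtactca
Klrc1: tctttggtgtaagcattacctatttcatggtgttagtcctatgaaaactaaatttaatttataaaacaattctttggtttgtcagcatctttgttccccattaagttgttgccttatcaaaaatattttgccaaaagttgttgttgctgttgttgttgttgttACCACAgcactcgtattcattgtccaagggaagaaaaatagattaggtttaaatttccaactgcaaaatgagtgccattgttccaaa
Bgn: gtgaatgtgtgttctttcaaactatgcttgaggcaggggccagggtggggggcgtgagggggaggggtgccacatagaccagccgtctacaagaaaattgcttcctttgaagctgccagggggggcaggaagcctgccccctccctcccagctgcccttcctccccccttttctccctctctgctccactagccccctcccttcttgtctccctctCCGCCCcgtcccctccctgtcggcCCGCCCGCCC
Hspb1: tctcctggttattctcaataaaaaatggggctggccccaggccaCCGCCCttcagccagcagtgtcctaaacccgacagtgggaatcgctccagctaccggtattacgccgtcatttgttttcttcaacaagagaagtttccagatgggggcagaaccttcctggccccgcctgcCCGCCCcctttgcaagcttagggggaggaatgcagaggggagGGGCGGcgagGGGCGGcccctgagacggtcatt
The motifs searched were TGTGGT, read by RUNX factors, CGGAAG, read by ETS factors, TGANTCA, read by AP-1, and GGGCGG, read by SP factors, each on both strands, and no match overlaps one of another motif in the windows shown. The Gzmb window holds 2 RUNX matches and 1 AP-1 match, the Klrc1 window 1 RUNX match on the reverse strand (ACCACA), the Bgn window 3 SP matches, of which the last pair overlap each other, and the Hspb1 window 4. A RUNX match was found in 14.2% of all 27025 promoter windows in the table, in 11.3% of those of tested genes, in 17.1% of the 854 matched genes at least 4-fold higher and in 11.3% of the 541 at least 4-fold lower. Among matched genes of the T cell receptor, signalling and granule lists it was in 36.2% of 47, and among those of the carcinoma, junction and collagen lists in 7.14% of 28. An SP match was in 32.9% of all windows, 57.9% of those of tested genes, 45.3% of the genes at least 4-fold higher, 56.7% of those at least 4-fold lower, 19.1% of those 47 and 67.9% of those 28, so the 4-fold lower genes were close to all tested genes. In the same order the shares with an ETS match were 13.8%, 25.1%, 13.1%, 11.5%, 6.38% and 10.7%. With an AP-1 match they were 6.87%, 4.55%, 7.03%, 6.84%, 2.13% and 10.7%. These counts describe letters in a window and not binding.

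Inhibitory receptors were among the most enriched genes. Pdcd1, which encodes PD-1, stood at 0.41, 2.6, 3.07, 1.25 and 6.01 TPM in tumours and 713, 678 and 826 TPM in the CD8 libraries (log2 difference 7.86, SE 0.44, adjusted p 4.87e-07). The CD8 libraries were all above every tumour, with library 3 highest. All 12 tested members were higher, at a median of 5.05, including Ctla4 (1.72 to 389 TPM), Cd96 (0.56 to 132 TPM), Havcr2, which encodes TIM-3 (4.02 to 137 TPM), and Lag3 (4.7 to 328 TPM).

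Transcription factors of effector and exhausted cells were more mixed. Of 18 tested, 16 were higher and 1 lower, with a median of 3.55. Tox, a driver of the exhausted state, went from 0.216 ± 0.175 to 49.5 ± 3.64 TPM. Ikzf3, the lymphocyte factor Aiolos, went from 0.782 to 140.1 TPM. The orphan nuclear receptors Nr4a2 and Nr4a3, induced by receptor signals, rose by 5.50 and 5.16. Id3, an inhibitor of E proteins that is kept on in memory cells and is also expressed outside the T cell lineage, was the member that fell, from 116, 95.9, 66.1, 76.3 and 51.4 TPM in the tumours to 11.1, 16.4 and 6.9 TPM in the sort (-2.74). Every CD8 library was below every tumour for Id3.

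Most genes of memory and stem-like T cells were higher in the sort: 12 of 15 tested were called, 8 of them at least 4-fold, and the median was 2.14. Il7r, the receptor for the survival cytokine IL-7, rose by 5.55, the chemokine Xcl1 by 3.84 and the chromatin organiser Satb1 by 5.05. Ly6c2 rose by 5.03, though its reads may be shared with Ly6c1. Tcf7, which encodes TCF1, the factor of stem-like CD8 cells, did not pass: it stood at 13, 17.6, 21.4, 20.1 and 18.7 TPM in the tumours and 20.5, 18 and 23.3 TPM in the sort. Its groups overlapped, and the log2 difference of 0.18 was equal to the median over all genes and turned to -0.09 under quantile normalization and to -0.03 under median-ratio scaling.

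Receptors that take in help were enriched together. Costimulatory receptors were higher in 11 of 11 tested, at a median of 3.93. These included the activating receptor Cd226 (5.85), Icos (6.32), Tnfrsf4, which encodes OX40 (5.47), and Tnfrsf18, which encodes GITR (5.62). Cytokine receptors and their signal carriers were higher in 15 of 17, at a median of 3.89. Among them Il2rb, the shared chain of the IL-2 and IL-15 receptors, went from 5.65 to 734 TPM, Il12rb2 from 0.302 to 64.7 TPM and Stat4, the IL-12 signal carrier, from 1.52 to 93 TPM.

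Effector cytokines, chemokines and homing genes were higher in 15 of 18 tested, at a median of 3.80. Ifng, which encodes interferon-gamma, went from 0.312 ± 0.324 to 128 ± 21.6 TPM, the chemokine Ccl5 from 40.3 ± 9.81 to 1646 ± 146 TPM and Cxcr6 from 0.958 ± 0.508 to 329 ± 0.884 TPM. Selplg, the selectin ligand PSGL-1, rose by 4.71. The genes that did not pass were present in tumours at about the same level as in the sort, such as Itgae, the CD103 integrin chain of resident cells, at 3.23 and 3.24 TPM.

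Lists for neighbouring lymphocytes hold many genes that CD8 cells also use. NK receptors and NK-type granule genes were higher in 12 of 13 tested (of 18 listed), at a median of 4.45, led by Klrc1, Klrd1, Gzma (6.0) and Klrk1, the NKG2D receptor (6.06), all of them shared with killer T cells. The genes of helper and regulatory T cells were higher in 8 of 11, at a median of 2.00. Cd4 stood at 1.84, 4.1, 7.94, 3.95 and 4.98 TPM in the tumours and 12.8, 14.8 and 13.4 TPM in the CD8 libraries, far under the level of Cd8a in the sort. Foxp3, the regulatory T cell factor, stood at 1.65 and 4.2 TPM, while Il2ra (4.52) and Ikzf2 (4.88), also used by activated CD8 cells, rose much more. The helper cytokine Il4 was lower (-1.77).

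Of 15 B and plasma cell genes only 6 passed the filter on low values, and 5 of these were higher. Igkc, the kappa light chain, stood at 1.17, 3.45, 10.5, 3.16 and 5.17 TPM in the tumours and 26.4, 29 and 110.3 TPM in the sort, highest in CD8 library 3. Ighm (2.17), Jchain (1.28) and Mzb1 (0.91) were also higher, at no more than 20.8, 3.97 and 1.54 TPM in any CD8 library. So was the B cell gene Cd79b (0.81), at means of 0.558 TPM in the tumours and 1.7 TPM in the sort. The member that was lower was Sdc1 (-0.82). The B cell genes Ms4a1 and Cd79a were near 0.

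Myeloid transcripts were present in the sort, and many were higher in it than in the tumours. Of 25 tested macrophage and monocyte genes, 18 were higher and 2 lower, with a median of 1.65. Csf1r, the receptor for macrophage colony-stimulating factor, stood at 17.7, 35.4, 108, 42.7 and 72 TPM in the tumours and 194, 176 and 164 TPM in the CD8 libraries (log2 difference 1.92, SE 0.47, adjusted p 0.0055). Every CD8 library was above the highest tumour. Cd14, a coreceptor for bacterial lipopolysaccharide, went from 72.3 ± 6.79 to 682 ± 109 TPM, Nos2, the inducible nitric oxide synthase, from 4.56 to 50.4 TPM, Chil3, a secreted macrophage protein, from 3.08 to 49.6 TPM and Ccr2, the monocyte chemokine receptor, from 3.14 to 30.9 TPM. Arg1, the arginase of tumour macrophages, stood at 89.7, 169, 111, 133 and 121 TPM in the tumours and 933, 915 and 979.6 TPM in the sort.

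Other macrophage genes did not follow. C1qa, a complement chain of tissue macrophages, stood at 409.6 and 576 TPM, a difference of 0.52 that passed (adjusted p 0.035) but did not under 12 of the 19 alternatives tried. Trem2 (24.8 and 31.4 TPM) and Cd163 (25.7 and 19.2 TPM) did not pass. Spp1, which encodes osteopontin and is made by macrophages and by tumour cells, fell from 5708 ± 523 to 1248 ± 408 TPM, and Ly6c1 from 243 to 129.6 TPM. Without tumour 1, 25 tested macrophage genes gave 17 higher and 4 lower.

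Inflammatory cytokines, chemokines and related genes were higher in 20 of 22 tested, at a median of 2.32. Il1b, the fever cytokine of activated monocytes and neutrophils, stood at 66.9, 70.3, 63.1, 74.6 and 88.7 TPM in tumours and 1858, 1813 and 2039 TPM in the CD8 libraries (4.70, SE 0.13, adjusted p 2.35e-08). Its lowest CD8 library was far above its highest tumour, and the tumours lay close together. Il1a rose by 5.70, Cxcl1 by 7.12 and Ptgs2, the inducible prostaglandin synthase, by 5.12.

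Neutrophil genes were higher in 10 of 13 tested, at a median of 1.31. Cxcl2, a chemokine for neutrophils, led with 21.9 to 1209.9 TPM, followed by the mitochondrial enzyme gene Acod1 (4.62), Il1r2, the decoy receptor for IL-1 (3.24), and the collagenase Mmp8 (3.18). The defining genes were split. S100a9 rose from a mean of 101 to 273 TPM and the receptor gene Csf3r from 11.9 to 25.4 TPM, and both were called higher. Cxcr2, also a receptor gene, did not pass, at 3.84, 5.77, 3.1, 5.36 and 5.27 TPM in the tumours and 2.72, 2.44 and 5.96 TPM in the sort. Ly6g did not exceed 1.05 TPM in any library. Dendritic cell genes were higher in 7 of 14 and lower in 3, at a median of 0.67. Among them Irf8, a factor of dendritic cells that activated T cells also express, rose by 3.23, Siglech by 2.95 and Ccr7 by 3.81, while Fscn1, an actin bundler, was lower (-1.36). Summed over the 25 macrophage genes, the level ranged from 8812 to 10242 TPM in the tumours and from 7153 to 8160 TPM in the CD8 libraries, with Spp1 alone at a mean of 5708 TPM in the tumours, and no gene of the list was at 0 in any CD8 library. The part that myeloid cells or their RNA in the sorted fraction have in these levels was not tested.

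Antigen presentation genes were higher in the sort. MHC class I and its peptide supply were higher in 15 of 15 tested, at a median of 1.71. Tap1, which carries peptides into the endoplasmic reticulum, rose by 2.40, Psmb8, an immunoproteasome subunit, by 3.20, and Nlrc5, the class I transactivator, by 3.15. H2-Q7, a nonclassical class I gene whose reads may be shared with its relatives, went from 14 to 475 TPM. MHC class II genes, which mouse T cells do not normally make, were higher in 8 of 9, at a median of 1.45. H2-Aa, a class II alpha chain, stood at 249.7, 207, 516, 283 and 464 TPM in the tumours and 1095, 1053 and 1067 TPM in the sort.

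Most interferon targets tested were higher too. Of 17 genes induced by interferon-gamma, 13 were higher, at a median of 2.01, among them the guanylate-binding proteins Gbp4 (3.80), Gbp6 (3.18) and Gbp7 (3.50) and Cd274, which encodes PD-L1 (10.7 to 141 TPM). With CD8 libraries 1 and 2 averaged, or without tumour 3, 10 of the 17 were higher. Of 20 type I interferon targets, 13 were higher and 1 lower, at a median of 1.48, but 8 were higher without CD8 library 3. Ifit2 rose by 3.05, Mx1 by 3.77 and Rsad2 by 3.90.

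**Figure D3:**
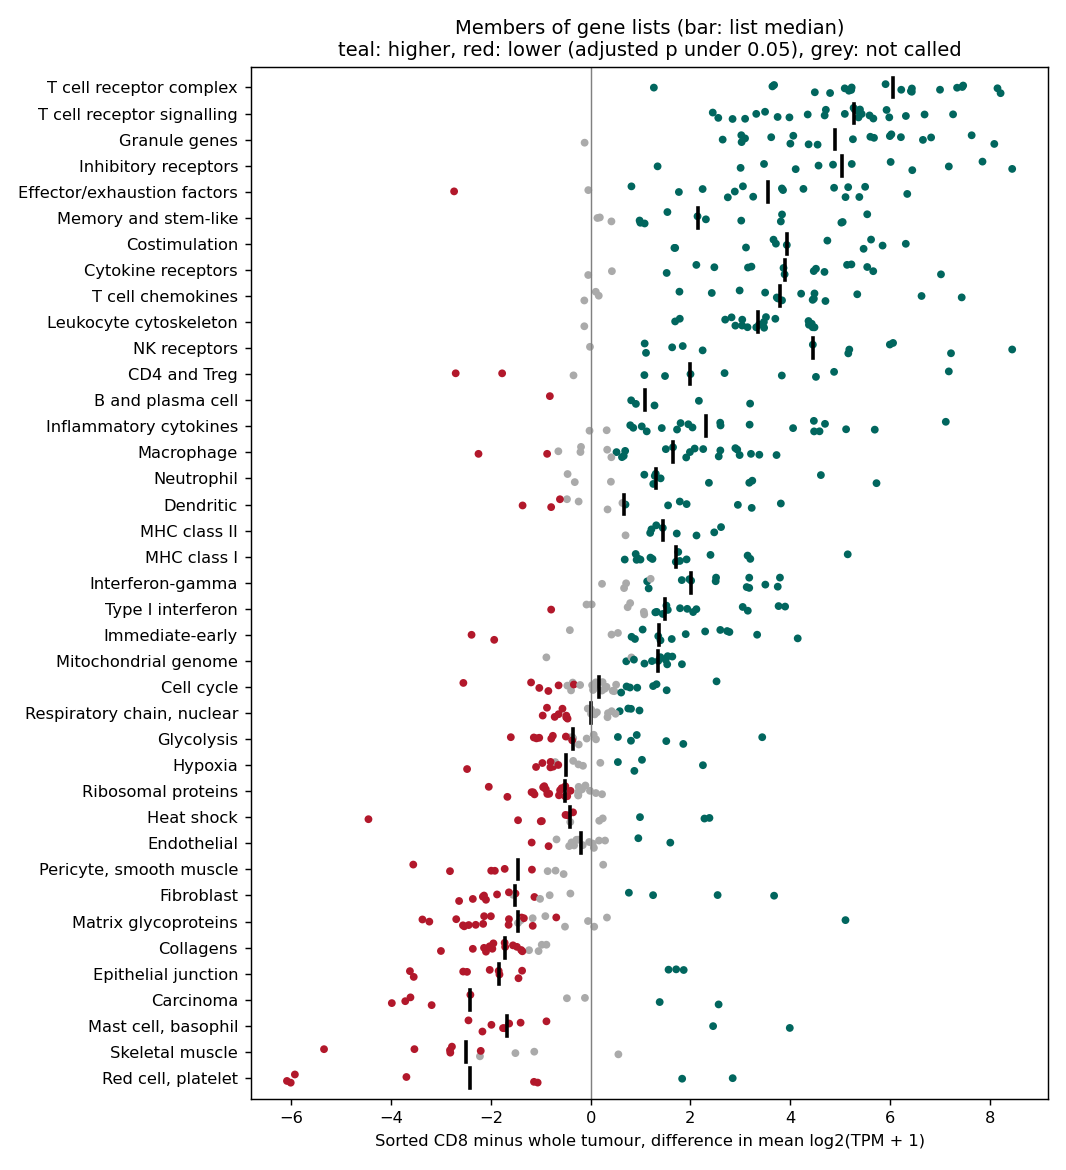
Difference between the 3 sorted CD8 and the 5 whole-tumour control libraries, in mean log2(TPM + 1), for each tested member of 39 of the 43 lists, with black bars at the list medians and colours for the call at an adjusted p under 0.05. Lists of T cell function lie to the right with nearly every member called higher, carcinoma, matrix, muscle and red cell lists lie to the left, and cell cycle and metabolic lists straddle 0.

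Carcinoma genes were lower in the sort but remained measurable. Of 16 listed, 9 passed the filter, and of these 5 were lower, all at least 4-fold, and 2 were higher, at a median of -2.41. Krt18, the partner of Krt8, went from 1454 ± 201 to 127 ± 55.6 TPM, Krt19 from 1273 ± 323 to 101 ± 44.4 TPM and Wfdc2, the ovarian cancer antigen HE4, from 509 ± 104 to 32.5 ± 12.3 TPM. The log2 difference of Krt8 was -3.19 (SE 0.28, adjusted p 9.49e-06). The members that were higher were Cdh1, which encodes E-cadherin, from 1.9, 2.9, 6.37, 4.61 and 5.82 TPM in the tumours to 28, 28.1 and 30.1 TPM in the sort (2.57), and Cd24a (1.38), a surface protein that leukocytes also carry. Epcam, Pax8, Krt7 and Muc16 did not exceed 1 TPM in any of the 8 libraries and were not tested.

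What remained of the carcinoma signal differed between the CD8 libraries. Summed over the list, the level was 4895, 3687, 5158, 4402 and 5743 TPM in tumours 1 to 5 and 599.8, 597 and 306 TPM in the CD8 libraries, which is 12.6%, 12.5% and 6.4% of the tumour mean. CD8 library 3 thus held the least. The same order was seen for collagens (29.5%, 27.9% and 10.6%) and for pericyte and smooth muscle genes (22%, 20.8% and 9.64%). For the genes at least 4-fold lower in the sort, the median level was 14.2%, 14.6% and 7.12% of the tumour mean. Those values describe the genes picked for their fall. Cell junction genes were lower in 9 of 12 tested and higher in 3, at a median of -1.84, with the claudins Cldn2 (-3.55) and Cldn6 (-3.62) and the plaque protein Jup (-2.56) among those that fell.

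**Figure D4:**
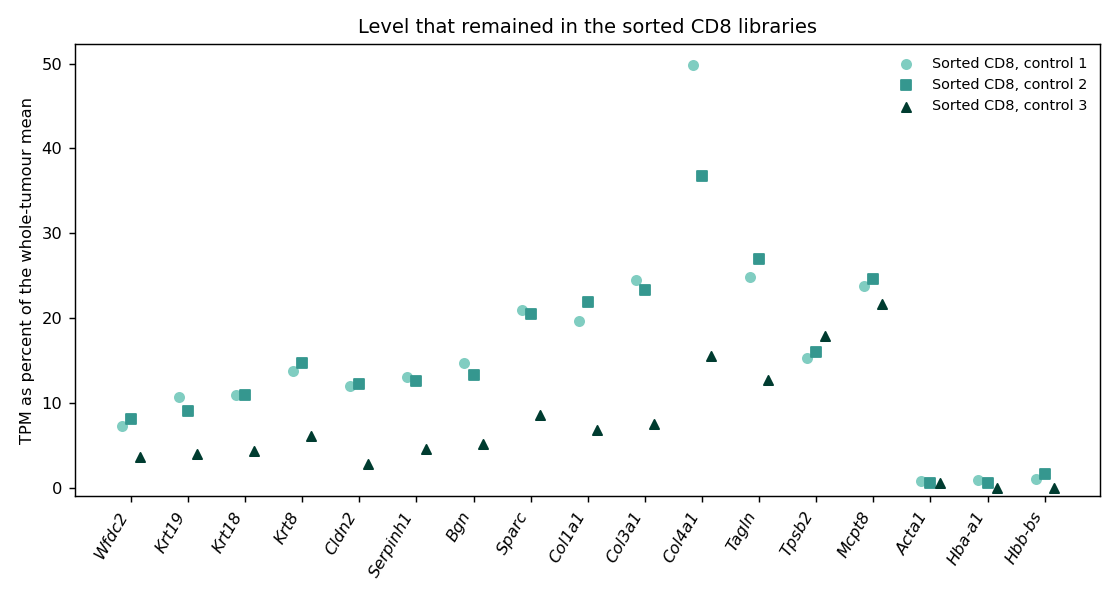
Level of 17 genes in each of the 3 sorted CD8 control libraries as a percentage of the mean of the 5 control tumours. Keratin, matrix and pericyte genes kept more in CD8 libraries 1 and 2 than in library 3, for example 13.8% and 14.8% against 6.08% for Krt8, while muscle actin and haemoglobin were under 2% in every library.

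Most matrix genes tested were lower in the sort. Collagens were lower in 13 of 17 tested, at a median of -1.71, but only 4 were lower without CD8 library 3. Col1a1, the main chain of type I collagen, stood at 40.2, 285, 445, 137 and 161 TPM in the tumours and 42.1, 46.8 and 14.7 TPM in the sort (-2.36, adjusted p 0.013, and 0.067 without CD8 library 3). Tumour 1, the lowest tumour, lay within the range of the CD8 libraries. Matrix glycoproteins and their helpers were lower in 16 of 25, at a median of -1.46. They included Sparc (-2.56), Bgn (-3.23), Timp1, an inhibitor of matrix proteases (-2.70), and Serpinh1, the collagen chaperone (-3.37). Against these, Thbs1, which encodes thrombospondin 1 and is also made by monocytes, rose from 5.12, 52.7, 34.9, 26.9 and 22.1 TPM in the tumours to 833, 793 and 836 TPM in the sort.

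Fibroblast genes were lower in 9 of 17 and higher in 4, at a median of -1.51, and 4 were lower without CD8 library 3. Cthrc1, a collagen-associated secreted protein (-2.16), and Mfap5, a microfibril protein (-2.64), were lower, while Thy1, Pdpn (2.55), S100a4 and C3 were higher. Thy1 is a pan-T cell protein in mice, and the others are also expressed by leukocytes. Pericyte and smooth muscle genes were lower in 6 of 10, at a median of -1.45. Among them were Acta2, smooth muscle actin (-1.99), Tagln (-1.92), the intermediate filament gene Des (-2.82) and Tpm2, a tropomyosin (-3.56).

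Few endothelial genes passed in either direction. Of 16 tested, 2 were higher and 2 lower, and the median of -0.20 turned to 0.07 without CD8 library 3. Pecam1, an adhesion molecule of endothelium that leukocytes also carry, stood at 7.5, 20.3, 31.9, 17.6 and 20.3 TPM in the tumours and 57.3, 59.4 and 51.4 TPM in the sort. Cdh5, the cadherin of endothelial junctions, did not pass, at 3.72, 12.8, 18.4, 11.6 and 9.59 TPM in the tumours and 14.7, 16.1 and 8.24 TPM in the sort, and the groups overlapped. Cldn5, a claudin of vessels, was lower (-1.18), and Kdr, a receptor for vascular growth factor, was higher (0.96), a call lost under some alternatives. A call in either direction thus covered 4 of 16 genes, against 64.8% over all genes. Without tumour 1, 4 were lower, without tumour 5 only 1 was, and without any 1 of the CD8 libraries 1 was higher.

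Most of the tested muscle and red cell transcripts were lower in the sort. Acta1, skeletal muscle actin, stood at 11, 68.2, 334, 174 and 44.9 TPM in the tumours and 1.07, 0.7 and 0.72 TPM in the sort. Hba-a1, an alpha-globin gene whose reads may be shared with Hba-a2, stood at 64.3, 93.1, 233, 270.0 and 34.4 TPM in the tumours and 1.38, 0.89 and 0 TPM in the sort. Every CD8 library was below every tumour for both genes, and the tumours varied widely. The summed skeletal muscle genes stood at 48.3, 173, 809, 425 and 102 TPM in the tumours and 17.2, 57.1 and 20.9 TPM in the CD8 libraries, with CD8 library 2 apart and above tumour 1, and Mylpf, a muscle myosin light chain, kept 3.4, 45.7 and 7.7 TPM in the sort and did not pass. Skeletal muscle genes were lower in 6 of 10 tested, at a median of -2.50, and red cell and platelet genes in 6 of 8, at a median of -2.42. The members of the last list that rose were the platelet chemokines Pf4 (1.83) and Ppbp (2.85). Mast cell and basophil genes were lower in 8 of 10, at a median of -1.68, with proteases such as Tpsb2 (-2.17), Cma1 (-1.76) and Mcpt8 (-1.99) falling. Kit, the stem cell factor receptor, went the other way, from 0.7, 2.35, 2.48, 3.13 and 3.12 TPM in the tumours to 40.4, 44.6 and 69.2 TPM in the sort, as did Hdc, the histamine-making enzyme (2.46). Of 8 listed adipocyte genes 3 passed the filter: Fabp4 (0.99) and Lpl (0.67) were higher and Cfd (-2.79) lower. Neither of the higher calls held without CD8 library 1, without CD8 library 2, with the pair averaged, or under quantile normalization or median-ratio scaling.

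The largest falls outside these lists were of mixed kinds. After Mir703, at 257 ± 309 TPM in the tumours and listed at 0 in all 3 CD8 libraries, came Il31ra, a cytokine receptor chain, from 177, 147, 195, 231 and 266 TPM in the tumours to 0.92, 0.89 and 1.35 TPM in the sort (-6.61). The groups were far apart for it. Sspn (-5.87), Tmtc2 (-5.75), Nos1ap (-5.58) and Gphn (-5.34), which encodes the synaptic scaffold gephyrin, were in the same range as the globin genes and Acta1. Kcnh6, a potassium channel gene, was listed at 0 in all 3 CD8 libraries and at a mean of 29.6 TPM in the tumours. The list of 15 was completed by Nlgn1, H2-Q1, Gchfr and Hspb1, and of these H2-Q1, a class I relative, went from 408 to 16.6 TPM although the class I list as a group was higher. Whether the separate gene sets of the deposited tables affect these genes was not tested.

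Proliferation genes showed no common direction. Of 30 tested, 8 were higher and 6 lower, and the median of 0.17 turned to -0.07 under quantile normalization. Without tumour 3, 13 were higher. Mki67, the proliferation antigen, went from 7.55, 12.7, 22.6, 13 and 17.1 TPM in the tumours to 47.1, 43.3 and 34.8 TPM in the sort. The D-type cyclins, which carry cells into the cycle, were split: Ccnd1 fell from 184 ± 55.4 to 30.2 ± 9.87 TPM, Ccnd2 rose from 5.14 ± 2.6 to 31.5 ± 0.445 TPM, and Ccnd3 did not pass, at 96.1 and 98.1 TPM. The D-type cyclin that leads in tumours was thus Ccnd1 and that in the sort Ccnd3.

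Genes of energy metabolism went in both directions. Glycolysis genes were higher in 6 of 21 and lower in 8, at a median of -0.35, and 5 were lower without CD8 library 3. Slc2a3, the glucose transporter of leukocytes, rose from 3.3, 4.81, 7.6, 5.58 and 8.93 TPM in the tumours to 75.8, 76.3 and 65.3 TPM in the sort, while Slc2a1, the transporter of most cells, did not pass, at 215 and 162 TPM. Of the phosphofructokinases, which commit sugar to glycolysis, the platelet form Pfkp was higher (1.52) and the liver form Pfkl (-1.09) and the muscle form Pfkm (-1.60) were lower. Slc16a3, a lactate exporter, rose by 1.86 and Eno1 by 0.92, and Aldoc was lower (-1.03). Enzymes of mannose phosphate and nucleotide sugars were higher in 5 of 13 and lower in 2, or 1 without tumour 5 or any 1 CD8 library, at a median of 0.26. Among these the phosphomannomutases differed in direction, with Pmm2 higher by 0.88 and Pmm1 lower (-1.56), and Gmds, which makes GDP-fucose from GDP-mannose, rose by 2.05.

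Hypoxia targets were higher in 4 of 16 and lower in 7, at a median of -0.50. Under quantile normalization 11 were lower, and with the replicate number as a block 3 were. Members ran from -2.48 to 2.25, the last being Egln3, an oxygen sensor. Ero1a, an oxidase of protein folding, was also among the higher members, at 1.03. Nuclear respiratory chain genes were higher in 4 of 21 and lower in 8, at a median of 0.01 that turned to -0.24 under quantile normalization, and 7 were higher without tumour 1. Transcripts of the mitochondrial genome, in contrast, were higher in 11 of 13, at a median of 1.36, among them mt-Nd2 (1.53) and mt-Atp6 (1.54). Cytosolic ribosomal protein genes were lower in 17 of 27 and higher in none at a median of -0.51, including Rpl13 (-2.04). Under quantile normalization 12 of the 27 were lower and 3 higher. Of all 82 tested genes classed as ribosomal, 43 were lower and 4 higher. Genes that most cells use at a steady level were higher in 3 of 14 and lower in 2, at a median of 0.03 that turned to -0.13 under quantile normalization. Without tumour 1, 4 were lower, and without any 1 CD8 library 1 was.

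Immediate-early genes, which respond within minutes to receptor signals and also to handling of cells, were higher in 13 of 18 and lower in 2, at a median of 1.38. The AP-1 gene Fosb rose from 5.59, 19, 11.1, 16.1 and 22.1 TPM in the tumours to 261, 279 and 229 TPM in the sort, and the phosphatase gene Dusp2 rose by 3.34, while Fosl1 was lower (-2.39) and Myc went from 122 to 31.1 TPM. Heat shock genes were higher in 3 of 13 and lower in 7, at a median of -0.41, with Hspa1a (2.38) and Hspa1b (2.28), close copies that may share reads, against Hspb1 (-4.46), and 4 were lower without CD8 library 2. Sorting itself and the kind of sample cannot be told apart for these lists. TGF-beta ligands, receptors and targets were higher in 4 of 15 and lower in 6, at a median of 0.16 that turned to -0.16 under quantile normalization, with the receptors Tgfbr2 (1.80) and Tgfbr3 (-1.73) and the target Ccn2 (-2.38) as examples.

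The comparison could be repeated in libraries that share no sample with it, 3 CD8 and 5 tumour libraries from mannose-supplemented tumours, where limma called 61.1% of 14546 genes: 5578 were higher (38.3%) and 3316 lower (22.8%). By at least 4-fold, 6.55% were called, 740 higher (5.09%) and 213 lower (1.46%). Among 14031 genes tested in both, 4190 were called higher both times, 81.2% of the control calls and 77.1% of the mannose calls. Called lower both times were 2487, 63.8% of the control calls and 76.6% of the mannose calls. Of 1301 genes at least 4-fold higher in the control comparison, 1188 were called higher again and 685 again by at least 4-fold, with medians of 2.83 in control and 2.07 in mannose libraries. Of 820 at least 4-fold lower, 681 were called lower again and 161 again by at least 4-fold, with medians of -2.53 and -1.03. Those genes were picked on the control libraries, so these medians are a description. The repeat has the same split between sets of tables.

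T cell and NK receptor lists again had the highest medians in the repeat, among them 4.91 for the receptor complex, 4.29 for its signalling, 3.63 for granule genes and 4.19 for inhibitory receptors. Carcinoma genes were at -0.52 and collagens at -0.50, nearer to 0 than in the control libraries. Summed carcinoma genes stood at 56.0% of the tumour level in the mannose sort, against the 6.40% to 12.6% given above. Macrophage genes had a median of the opposite sign: 2 of 25 were higher and 13 lower, at a median of -0.65 in place of 1.65. MHC class II genes did so as well, with 1 of 9 higher and 4 lower at a median of -0.75, and endothelial genes were higher in 9 of 16 at 0.91. Of the largest falls, Il31ra (-7.33), Sspn (-4.96), Tmtc2 (-5.55), Nos1ap (-5.55) and Gphn (-4.96) were about as large in the repeat, while Hspb1 was at -0.61 and Acta1 at -1.56. The difference between the repeats was not tested.

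**Figure D5:**
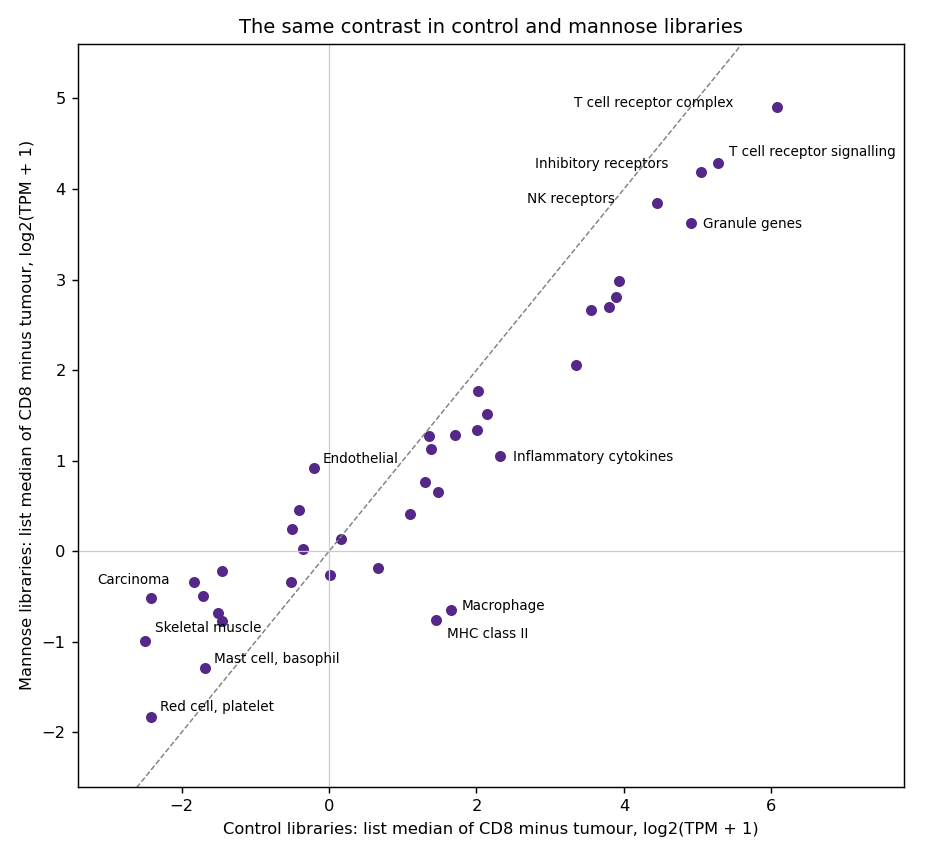
List medians of the difference between sorted CD8 and whole tumour in log2(TPM + 1), in control libraries on the x axis (3 against 5) and in mannose libraries on the y axis (3 against 5), with the dashed line where they would be equal. T cell lists lie at the upper right below the line, carcinoma and muscle lists lie to the left above it, and macrophage and MHC class II lists are above 0 in control and below 0 in mannose libraries.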

How the data were processed

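Messenger RNA was measured by bulk sequencing, and the authors deposited 1 table of TPM values per library, with gene symbols and 2 decimals; the unit was read from the values. Per the submitters' processing notes the tools were RSEM, HISAT and fastp, on genome build GRCm39. Versions and the annotation release are not given in the sources used here, so precision from read depth cannot be given.

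Entries sharing a symbol were summed, and the 52916 symbols present in both sets of tables were kept. Genes with at least 1 TPM in at least 3 of the 8 control libraries were tested on log2(TPM + 1), pseudocount 1, by limma (version 3.58.1, R 4.3.3) allowing the variance to follow the mean, with Benjamini-Hochberg adjustment over all genes tested and a threshold of 0.05. A fold on this scale understates the change of low genes. The comparison, 43 gene lists (698 genes present, 645 tested) and the alternatives were chosen with earlier results of these data known.

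Genes named are the 15 with the largest difference in each direction at a mean of at least 5 TPM, with predicted and segment genes left out, up to 4 members of each list and direction that passed, and a panel of markers. Other members named were chosen after their values were seen. Some genes that meet these rules are not reported here. On simulated data for this comparison (14487 genes), 12%, 50%, 92% and 98% of 50 genes moved 1.5-, 2-, 4- and 8-fold were called. There were 8 false calls. In the control libraries 64.8% of genes were called, a far larger share than was moved here. Recovery and false calls at that share were not tested. Alternatives changed the pseudocount, filter, scaling, gene classes, library weights and libraries used. Same-numbered CD8 and tumour libraries deviated from their group means with correlations of -0.066, 0.015 and -0.008. With so few libraries these values cannot decide whether any came from the same animal. The labels give no pairing, so numbers were not taken to pair samples. Plots were made in Python 3.11.15 using matplotlib 3.10.9.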

Additional observations from a re-analysis of the deposited data

Results flagged for a closer look

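Of 295 genes and list sums, those with at least 1 TPM in some tumour were searched. A tumour library that stood apart from the other 4 was found for 15. Chance flags about 1 in 20 groups, and the total is near that share. The flags were not spread evenly over the tumours, however. Ribosomal protein genes held 29.9% of the TPM in tumour 1, against 20.4% to 25.9% in the other tumours. Tumour 1 was the library in most of the flags. It was low for the receptor Kit (0.70 TPM), the integrin chain Itga4 (0.34 TPM), the GDP-fucose enzyme Gmds (0.92 TPM), Ptgs2 (1.80 TPM), the TGF-beta genes Skil (2.68 TPM), Smad7 (7.03 TPM) and Tgfbr3 (9.01 TPM) and the X-linked RNA Xist (1.82 TPM), and low for the summed memory and stem-like genes (72.9 TPM) and the summed housekeeping genes (33100.0 TPM). It was high for the respiratory chain gene Ndufa1 (180.8 TPM). Tumour 5 was high for Cd14 (84.3 TPM) and Ly6c1 (365 TPM), and tumour 3 was high for Ndufs1 (28.7 TPM) and for the summed nuclear respiratory chain genes (6968 TPM).

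Named genes alone were searched for groups that lay apart in opposite directions, and the share over all genes tested was not counted. For 3 of these named genes, every CD8 library lay above every tumour in the control libraries and below every tumour in the mannose libraries. The log2 differences in the mannose libraries were -0.84 for the macrophage adhesion receptor Adgre1, -1.17 for the MHC class II chain H2-Ab1 and -0.72 for the platelet chemokine Pf4. The difference between the contrasts was not tested.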

How the results depend on the processing

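The counts of 5459 higher and 3930 lower genes stayed within 1.5 times under each of 19 alternatives, as did the 4-fold counts except with another pseudocount: 2104 higher and 1434 lower at 0.1, and 687 and 309 at 5. Leaving out 1 library gave 4764 to 5785 higher and 3377 to 4784 lower genes, and 1237 to 1390 and 697 to 917 at 4-fold. With the replicate number as a block, 4641 were higher and 3019 lower, though the labels do not say whether the numbers pair samples. Of 245 named genes that passed, 224 kept the call under every alternative, 21 lost it under at least 1, and none changed sign. The signs that turned were of genes not called and of list medians near 0. Under quantile normalization and median-ratio scaling these were Tcf7 (-0.0929 and -0.0289), Ccnd3 (-0.2007 and -0.1741) and the medians of cell cycle (-0.0704 and -0.0554), nuclear respiratory chain (-0.2396 and -0.2145), housekeeping (-0.132 and -0.1908) and TGF-beta genes (-0.1557 and -0.0671). Without gene classes of variable share they were Ccnd3 (-0.0992), respiratory chain (-0.139) and housekeeping (-0.1138), and with array weights Itgb7 (0.1325). Leaving out 1 library gave -0.0365 to 0.1421 for Ccnd3, -0.502 to 0.0456 for Cd163, -0.0194 to 0.5648 for Cdh5 and -0.2523 to 0.0443 for Itgb7. For list medians it gave -0.4176 to 0.0725 for endothelial, -0.0003 to 0.3849 for mannose and nucleotide sugar, -0.059 to 0.0944 for respiratory chain and -0.0973 to 0.122 for housekeeping genes. The cause was not tested. Read depth is unknown, so the counting error of low values is too.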

Other observations

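Some values outside the lists described the libraries themselves. Xist, the RNA that coats the inactive X chromosome of female cells, stood at 1.82, 7.63, 5.70, 6.79 and 5.37 TPM in the tumours and 139.5, 142 and 105 TPM in the CD8 libraries (log2 difference 4.41), and was chosen after its values were seen. Every CD8 library was far above every tumour. T cell receptor and immunoglobulin segment genes, whose use differs between lymphocyte clones, held 0.002% to 0.011% of the TPM in the tumours and 0.538% or more in the CD8 libraries. Mitochondrial transcripts held 1.5% to 2.41% in the tumours and 3.94% to 4.44% in the CD8 libraries.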
